A study of Drosophila melanogaster with 6 samples.

Results

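The genes described here encode the fly neurexin, its neuroligin partners and the related adhesion proteins that carry a cholinesterase-like domain. They were chosen by FlyBase symbol, by a rule that uses no measured value, and are *Nrx-1*, *Nlg1*, *Nlg2*, *Nlg3*, *Nlg4*, *Glt*, *Gli* and *Nrt*, 8 of the 17559 genes listed for each library. All 8 passed the filter on low counts and were among the 10187 genes tested. Of the 8 genes, *Glt* alone passed an adjusted p under 0.05 in the comparison of the controls, with about 2.15 times the level in the RT control, while *Nrx-1*, the 4 neuroligins, *Gli* and *Nrt* did not pass that threshold. This is 1 of 8 genes, beside 10.1% of all tested genes, and the call of *Glt* was lost in 4 of the 6 fits that left out 1 library.

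The study used RNA sequencing of heads of *Drosophila melanogaster* with neuron-specific knockdown of homologs of genes from a human chromosome deletion, and the 6 libraries examined here are its controls, which carry no RNAi construct. All flies carried *Elav-GAL4* over a *w1118* chromosome, the Dicer2 25C control with *UAS-Dicer2* (*UAS-Dicer2/+*) and rearing at 25°C, and the RT control without it and at room temperature. Each group had 3 biological replicates, each made from polyadenylated RNA of a pool of 35 to 40 female heads, from flies whose age was not given in the sources used here. *Elav-GAL4* drives transgenes in neurons and the VDRC GD control background was shared by both groups, so Dicer2, driver stock and temperature changed together between the groups and cannot be told apart.

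Neurexin sits mainly on the presynaptic membrane and binds neuroligins across the synaptic cleft, and the pair aligns transmitter release sites with receptors. Neuroligins are single-pass membrane proteins whose extracellular domain resembles acetylcholinesterase but lacks a complete catalytic site. The same fold occurs in Glutactin (*Glt*), secreted into basement membranes, Gliotactin (*Gli*), at the corners where epithelial or glial cells meet, and Neurotactin (*Nrt*), a membrane protein of neurons and epithelia involved in axon guidance.

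Libraries held from 18651266 to 25183878 counts on genes in the Dicer2 25C control and from 33898008 to 42487803 in the RT control. Every RT control library was thus deeper than every Dicer2 25C library. The floor used here, 3 counts, corresponds to between 0.0706 and 0.161 CPM. In CPM, the unit of level used here, counts are scaled to a common library total adjusted for composition by edgeR's TMM method. The first Dicer2 25C library had 69361668 alignments that were not unique, against 7164088 to 8454145 in the other 5. The labels were checked with *Dcr-2*, the RNase that the *UAS-Dicer2* transgene adds: it stood at 506 to 609 CPM in the Dicer2 25C libraries and at 55.6 to 61.4 CPM in the RT control (log2 fold change -3.30, SE 0.11, adjusted p = 6e-05 in edgeR's quasi-likelihood test). All 6 neuronal markers were detected, with a summed level of 4114 to 5847 CPM in the Dicer2 25C libraries and 4475 to 4627 CPM in the RT control. Replicate libraries differed from each other by far more than counting error (chi-square over degrees of freedom of 32.2 to 152.9).

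Levels of different genes were compared per length, as RPKM, the CPM of a gene divided by its exon length in kilobases. *Glt* had the highest level of the 8 genes, with a mean of 87.1 RPKM in the Dicer2 25C libraries and 187 RPKM in the RT control, the latter 3.99 times the level of *Nrx-1*. *Nrx-1* followed at 49.8 and 46.8 RPKM, then *Nlg2* at 25.7 and 22.9 RPKM and *Nrt* at 13.3 and 12.8 RPKM. In both groups these 4 genes kept this order and no neighbours in it overlapped. The mean level of *Glt* was above that of 95.1% of all tested genes, that of *Nrx-1* above 86.3% and that of *Nlg2* above 71.0%.

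The lower 4 genes were closer together. *Nlg3* stood at 10.3 RPKM in the Dicer2 25C libraries and 9.81 RPKM in the RT control, *Nlg4* at 9.30 and 8.42 RPKM, and *Gli* at 7.94 and 8.44 RPKM. In the Dicer2 25C control the libraries of *Nlg3* and *Nlg4* overlapped, as did those of *Nlg4* and *Gli*. In the RT control those of *Gli* and *Nlg4* overlapped, so the order within these pairs was not resolved. *Nlg3* was above *Gli* without overlap in both groups, and above *Nlg4* without overlap in the RT control. *Nlg1* was lowest in every library, at 3.87 and 4.84 RPKM, above 25.7% of tested genes.

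**Figure D1:**
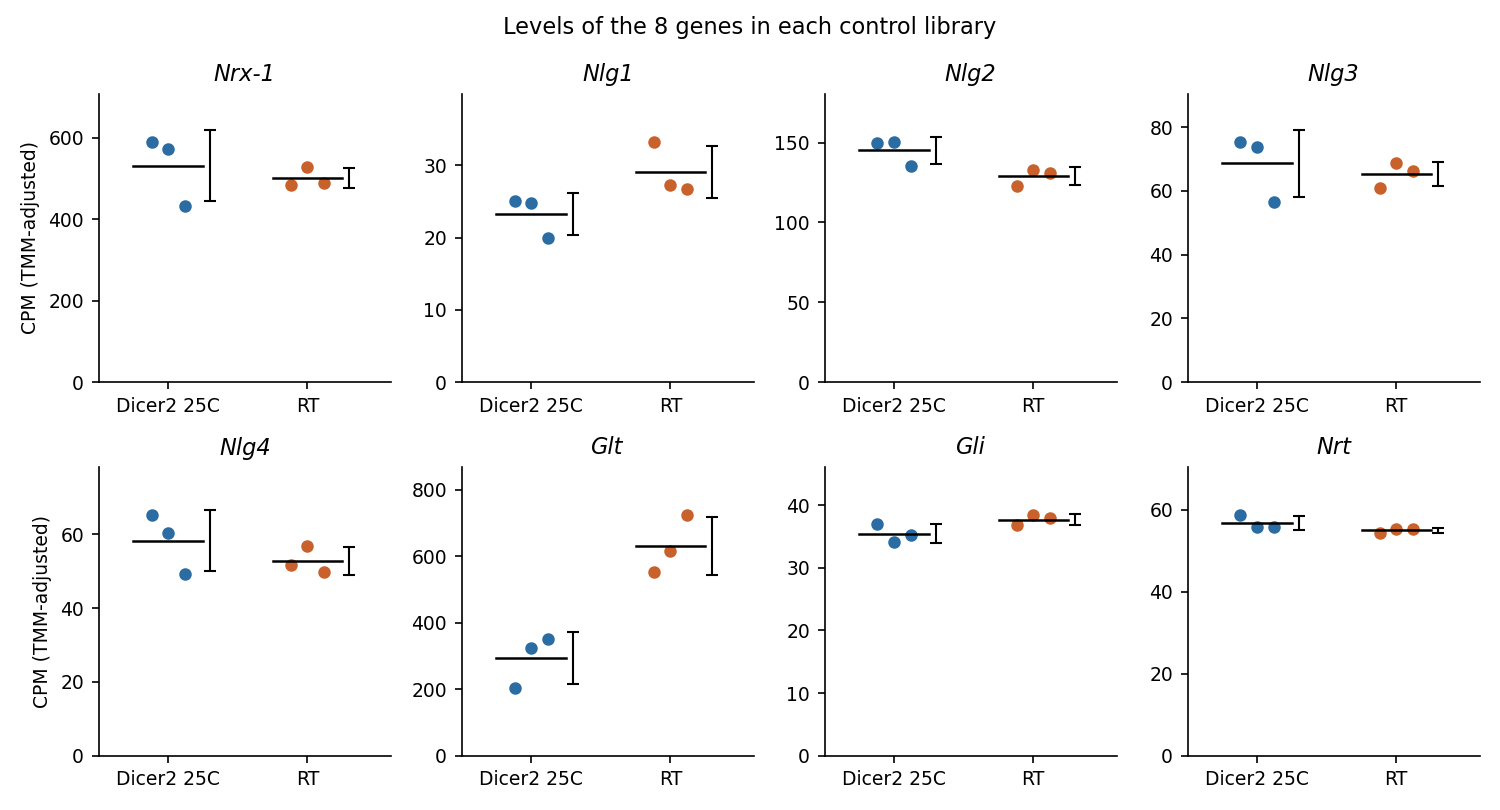
TMM-adjusted CPM (vertical axes, each from 0) of the 8 genes in 3 Dicer2 25C and 3 RT control libraries. Points are libraries in replicate order, horizontal lines are means and bars are 1 SD either side (n = 3), and *Glt* has mean levels of 294 and 631 CPM with no overlap between the groups.

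*Nrx-1* (FBgn0038975), the single fly homolog of the vertebrate alpha-neurexins, is a gene of 9 annotated transcripts on arm 3R from 22468512 to 22486969, plus strand, BDGP6.54. Its levels were 591, 573 and 433 CPM in replicates 1 to 3 of the Dicer2 25C control and 486, 529 and 489 CPM in those of the RT control. The groups overlapped, since the third Dicer2 25C library was the lowest of the 6 and the other 2 of that group were the highest. The group means were 532 ± 86.7 and 501 ± 24.2 CPM (SD, n = 3). The log2 fold change of the RT control over the Dicer2 25C control was -0.09 (SE 0.13, 95% interval -0.41 to 0.23), with a Benjamini-Hochberg adjusted p of 0.692 in edgeR's quasi-likelihood test. That interval corresponds to a ratio between 0.755 and 1.17. In whole heads, fewer cells of a type and less RNA per cell cannot be told apart in this or any other level.

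The low *Nrx-1* level in the third Dicer2 25C library went with low levels of neuronal markers. Low levels there were not limited to neuronal genes. The summed level of the muscle markers was also lowest there, at 8830, 8438 and 4631 CPM in the Dicer2 25C libraries. *elav*, an RNA-binding protein gene used to mark neurons, stood at 206, 184 and 146 CPM in the Dicer2 25C libraries and 169, 174 and 159 CPM in the RT control (log2 fold change -0.10, adjusted p = 0.65), and the summed level of the 6 neuronal markers stood at 5847, 5401 and 4114 CPM in the Dicer2 25C libraries. As a share of that sum *Nrx-1* was 10.4% ± 0.267 in the Dicer2 25C libraries and 10.9% ± 0.474 in the RT control (SD, n = 3), and the groups again overlapped. Of the 6 neuronal markers, none passed the edgeR test, 1 had an unadjusted p under 0.05 and 1 was called by DESeq2, and their median log2 fold change was -0.14. Without Dicer2 25C replicate 3, 4 of the 6 were called lower in the RT control. The lowest adjusted p among them with all libraries was 0.082, for *nSyb*, the neuronal synaptobrevin of synaptic vesicles.

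The 4 neuroligin genes are spread over 2 chromosome arms, with *Nlg2* on 2L and the others on 3R, where *Nlg3* and *Nlg1* are neighbours on opposite strands. None of the 4 was called by edgeR's quasi-likelihood test or by DESeq2, and 1 (*Nlg1*) had an unadjusted p under 0.05. Their median log2 fold change was -0.11, beside -0.0038 over all tested genes. Across all tested genes 10.1% were called at an adjusted p under 0.05, 5.28% higher and 4.83% lower in the RT control.

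*Nlg2* (FBgn0031866, 2L, 6874900 to 6906656, plus strand) acts on both sides of the larval neuromuscular synapse. Its levels were 149, 151 and 135 CPM in the Dicer2 25C libraries and 123, 133 and 131 CPM in the RT control. Each RT control library was below each Dicer2 25C library, the nearest being 133 and 135 CPM. The log2 fold change was -0.17 (SE 0.07, 95% interval -0.34 to 0.00, edgeR adjusted p = 0.169). As a share of the summed neuronal markers the groups of *Nlg2* overlapped.

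*Nlg1* (FBgn0051146, 3R, 7658247 to 7694874, plus strand) is needed on the muscle side for growth of the larval neuromuscular junction. Its levels were 25.0, 24.7 and 19.9 CPM in the Dicer2 25C libraries and 33.3, 27.2 and 26.7 CPM in the RT control. All RT control libraries were above all Dicer2 25C libraries. The ratio was 1.25 (95% interval 1.01 to 1.54) and the log2 fold change 0.32 (SE 0.13), with an unadjusted p of 0.0399 and an edgeR adjusted p of 0.142, so *Nlg1* was not called. Relative to the summed neuronal markers *Nlg1* stood at 0.457% ± 0.0281 in the Dicer2 25C libraries and 0.635% ± 0.0729 in the RT control (SD, n = 3), again without overlap.

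*Nlg3* (FBgn0083963, 3R, 7570281 to 7639434, minus strand), which also takes part in neuromuscular junction development, had levels of 75.4, 73.6 and 56.6 CPM in the Dicer2 25C control. In the RT control it stood at 61.0, 68.6 and 66.1 CPM, within the range of the other group. Its log2 fold change was -0.07 (SE 0.12, 95% interval -0.36 to 0.21, edgeR adjusted p = 0.72). *Nlg4* (FBgn0083975, 3R, 20204809 to 20245473, plus strand), known for a part in sleep through inhibitory transmission, had levels of 65.2, 60.4 and 49.3 CPM in the Dicer2 25C libraries and 51.5, 56.9 and 49.8 CPM in the RT control. These groups overlapped too, and the log2 fold change was -0.14 (SE 0.12, 95% interval -0.42 to 0.13, edgeR adjusted p = 0.439). As with *Nrx-1*, the third Dicer2 25C library was the lowest of the 6 for *Nlg1*, *Nlg3* and *Nlg4*, and it was the lowest of its own group for *Nlg2*.

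The makeup of the neuroligin transcripts was described as shares of their summed RPKM, which do not depend on the scaling between libraries. *Nlg2* made up 50.5%, 51.8% and 54.9% in the Dicer2 25C libraries and 48.7%, 49.6% and 51.0% in the RT control, so these groups overlapped. *Nlg3* held 20.9% ± 1.19 and 21.3% ± 0.724 in the Dicer2 25C and RT controls, and *Nlg4* held 18.9% ± 0.926 and 18.3% ± 0.846 (SD, n = 3). *Nlg1* was the smallest part in every library, at 7.95%, 7.99% and 7.60% in the Dicer2 25C libraries and 12.4%, 9.55% and 9.76% in the RT control. The shares of *Nlg1* did not overlap between the groups, whichever of union exon length and longest transcript length was used. With 3 libraries against 3, no test of the shares was run.

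**Figure D2:**
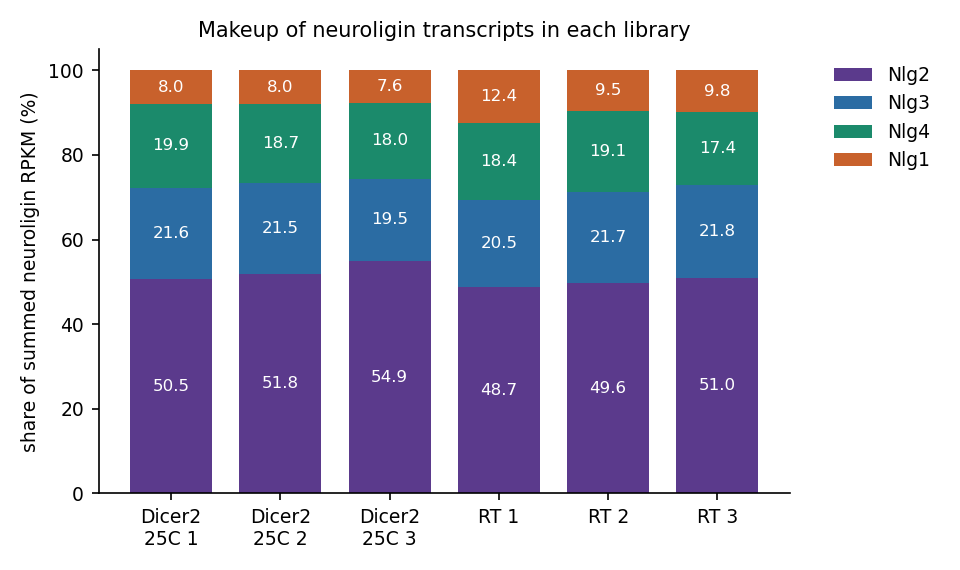
Share of each neuroligin in the summed neuroligin RPKM of a library (vertical axis, percent), with 1 bar for each of 3 Dicer2 25C and 3 RT control libraries. *Nlg2* makes up 48.7% to 54.9% of each bar, and *Nlg1* is at most 7.99% in the Dicer2 25C libraries and at least 9.55% in the RT control.

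Over union exon length, summed neuroligin and neurexin levels were close to each other. The sum of the 4 neuroligins was 0.949, 0.962 and 1.08 times the RPKM of *Nrx-1* in the Dicer2 25C libraries and 0.986, 0.961 and 0.997 times in the RT control. These ratios overlapped between the groups. Over the longest transcript they were below 1 in every library, at 0.8765, 0.8892 and 0.9988 in the Dicer2 25C libraries and 0.91, 0.8873 and 0.9218 in the RT control. The summed neuroligin level was 49.2 ± 4.83 RPKM in the Dicer2 25C libraries and 45.9 ± 1.42 RPKM in the RT control (SD, n = 3).

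Among the genes whose products work with neurexin and neuroligins, the list examined held 10 partners, namely the scaffolds *CASK*, *veli*, *X11L*, *dlg1* and *scrib*, the active zone proteins *Syd1*, *Liprin-alpha* and *Spn*, and the teneurins *Ten-a* and *Ten-m*. None of the 10 was called by edgeR's quasi-likelihood test, beside 10.1% of all tested genes. Of the 10, 1 had an unadjusted p under 0.05 and 1 was called by DESeq2. Their median log2 fold change was 0.11, and single values ran from -0.18 for *veli* to 0.29 for *scrib*. *scrib*, a scaffold of septate junctions and synapses, had the lowest adjusted p of the list, 0.0994.

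The 2 relatives of neurexin differed in their values. *axo* encodes Axotactin, a protein with neurexin-like domains that glia secrete onto axons. It stood at 66.5, 62.8 and 84.2 CPM in the Dicer2 25C libraries and at 103, 134 and 128 CPM in the RT control, without overlap. It was higher in the RT control by a log2 fold change of 0.78 (SE 0.15, edgeR adjusted p = 0.0278). The call of *axo* was lost without Dicer2 25C replicate 1 (adjusted p = 0.098), Dicer2 25C replicate 2 (0.115), RT replicate 2 (0.0799) or RT replicate 3 (0.0925), with log2 fold changes of 0.69 to 0.74. *Nrx-IV*, which encodes a core protein of septate junctions, had a log2 fold change of -0.05 (adjusted p = 0.646).

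*Glt* (FBgn0001114) lies on 2L from 8672698 to 8676804, plus strand, and has 2 annotated transcripts and 3 exon blocks. Its levels were 205, 324 and 352 CPM in replicates 1 to 3 of the Dicer2 25C control, from 3915, 8262 and 8263 counts. In the RT control they were 552, 617 and 724 CPM, from 18081, 26015 and 23765 counts. Every RT control library was above every Dicer2 25C library, and the first Dicer2 25C library was the lowest. Of the 8 genes *Glt* varied most within a group, with 1.72 times between the lowest and the highest Dicer2 25C library and 1.31 times in the RT control.

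*Glt* rose from a mean of 294 ± 78.2 to 631 ± 86.8 CPM (SD, n = 3) in the RT control, a ratio of 2.15 (95% interval 1.5 to 3.07). The log2 fold change was 1.10 (SE 0.22) with a Benjamini-Hochberg adjusted p of 0.0305 in edgeR's quasi-likelihood test. *Glt* was thus 1 of 8 members called, beside 10.1% of all tested genes, and it also passed an absolute log2 fold change above 1, as did 2.82% of tested genes, 1.30% with a higher level in the RT control. The call was lost without Dicer2 25C replicate 1 (adjusted p = 0.0503), Dicer2 25C replicate 2 (0.111), RT replicate 2 (0.0794) or RT replicate 3 (0.0952). The log2 fold change of *Glt* lay between 0.90 and 1.25 with any 1 library left out.

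Glutactin is a basement membrane protein, and 11 other basement membrane genes were tested. Of these, *LanB2* was called higher and *LanA* lower in the RT control, beside 5.28% and 4.83% of all tested genes. The median log2 fold change of the 11 genes was 0.36. *LanB2*, which encodes the gamma chain of laminin, stood at 42.2, 48.6 and 46.4 CPM in the Dicer2 25C libraries and 61.0, 66.4 and 69.2 CPM in the RT control. Its log2 fold change was 0.52 (SE 0.08, edgeR adjusted p = 0.0193). *LanA*, which encodes a laminin alpha chain, fell from 193, 196 and 166 CPM to 66.2, 91.6 and 91.5 CPM, a log2 fold change of -1.16 (SE 0.14, edgeR adjusted p = 0.0109). These 2 laminin genes had groups without overlap and moved in opposite directions. The laminin genes *LanB1* (log2 fold change -0.07, adjusted p = 0.673) and *wb* (0.66, adjusted p = 0.125) were not called. Of the 11 genes 8 had log2 fold changes above 0 and 6 had an unadjusted p under 0.05. *Ppn* (0.85, adjusted p = 0.0563) and *Ndg* (0.53, adjusted p = 0.0569) were near the threshold. The call of *LanB2* was lost without Dicer2 25C replicate 1 (adjusted p = 0.0665), Dicer2 25C replicate 2 (0.077), RT replicate 2 (0.0716) or RT replicate 3 (0.0786), and that of *LanA* without Dicer2 25C replicate 2 (0.0665). The number of basement membrane genes called higher was 5 with DESeq2, 3 without the filter, 3 without Dicer2 25C replicate 3 and 4 without RT replicate 1.

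Markers of fat body and haemocytes, cells that release proteins into the circulation, were also measured. Of those tested 2 of 7 and 1 of 5 were called, all higher in the RT control, beside 5.28% of all tested genes. Of 7 fat body markers tested out of 9, the others being near 0, 2 were called higher in the RT control, 0 lower, and the median log2 fold change was 0.61. *Yp3*, a yolk protein gene of female fat body, stood at 3634, 6033 and 6922 CPM in the Dicer2 25C libraries and 12499, 14744 and 14273 CPM in the RT control (log2 fold change 1.32, SE 0.26, edgeR adjusted p = 0.0323). *apolpp*, the lipophorin precursor, had a log2 fold change of 0.61 (SE 0.11, adjusted p = 0.027). Among the markers not called, *Yp1* had a log2 fold change of 0.89 (adjusted p = 0.0826) and *Yp2* of 0.65 (adjusted p = 0.22). *Lsp2* had a log2 fold change of 0.17 (adjusted p = 0.751), *fit* of 0.31 (adjusted p = 0.623) and *to* of -0.35 (adjusted p = 0.421). The summed level of the fat body markers was 16483 to 26043 CPM in the Dicer2 25C libraries and 34509 to 48201 CPM in the RT control, and like *Glt* it was lowest in the first Dicer2 25C library. Most of this sum came from the yolk protein genes *Yp1*, *Yp2* and *Yp3*. Their means were 9966.1, 5143.8 and 5529.6 CPM in the Dicer2 25C libraries and 18527.2, 8057.1 and 13838.5 CPM in the RT control. *Yp3* and *apolpp* both lost their calls without Dicer2 25C replicate 1 or 2 or RT replicate 2 or 3, with adjusted p of 0.0683 to 0.117 for *Yp3* and 0.0796 to 0.103 for *apolpp*, while 4 fat body markers were called higher without RT replicate 1.

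Of 5 haemocyte markers tested out of 6, *srp*, a GATA factor of blood cells and fat body, was called higher (log2 fold change 0.94, SE 0.13, edgeR adjusted p = 0.0147) and none lower. The call of *srp* was lost without Dicer2 25C replicate 2 (adjusted p = 0.0665) or RT replicate 3 (0.0687), and the number of haemocyte markers called higher was 3 without Dicer2 25C replicate 3 and 2 without RT replicate 1. All 5 had log2 fold changes above 0, with a median of 0.58, 4 had an unadjusted p under 0.05 and 3 were called by DESeq2. Among those not called by edgeR, *Hml* had a log2 fold change of 0.76 (adjusted p = 0.133) and *NimC1* of 0.58 (adjusted p = 0.1). *eater* had one of 0.57 (adjusted p = 0.114) and *Pxn* one of 0.10 (adjusted p = 0.611). The haemocyte marker sum was 357 to 459 CPM in the Dicer2 25C libraries and 448 to 645 CPM in the RT control, which overlapped. *He* was near the floor, was not tested and was lower in the RT control without overlap. It stood at 0.314, 0.431 and 0.384 CPM in the Dicer2 25C libraries and 0.122, 0.308 and 0.183 CPM in the RT control. The part of fat body or haemocyte RNA in the difference of *Glt* was not tested.

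**Figure D3:**
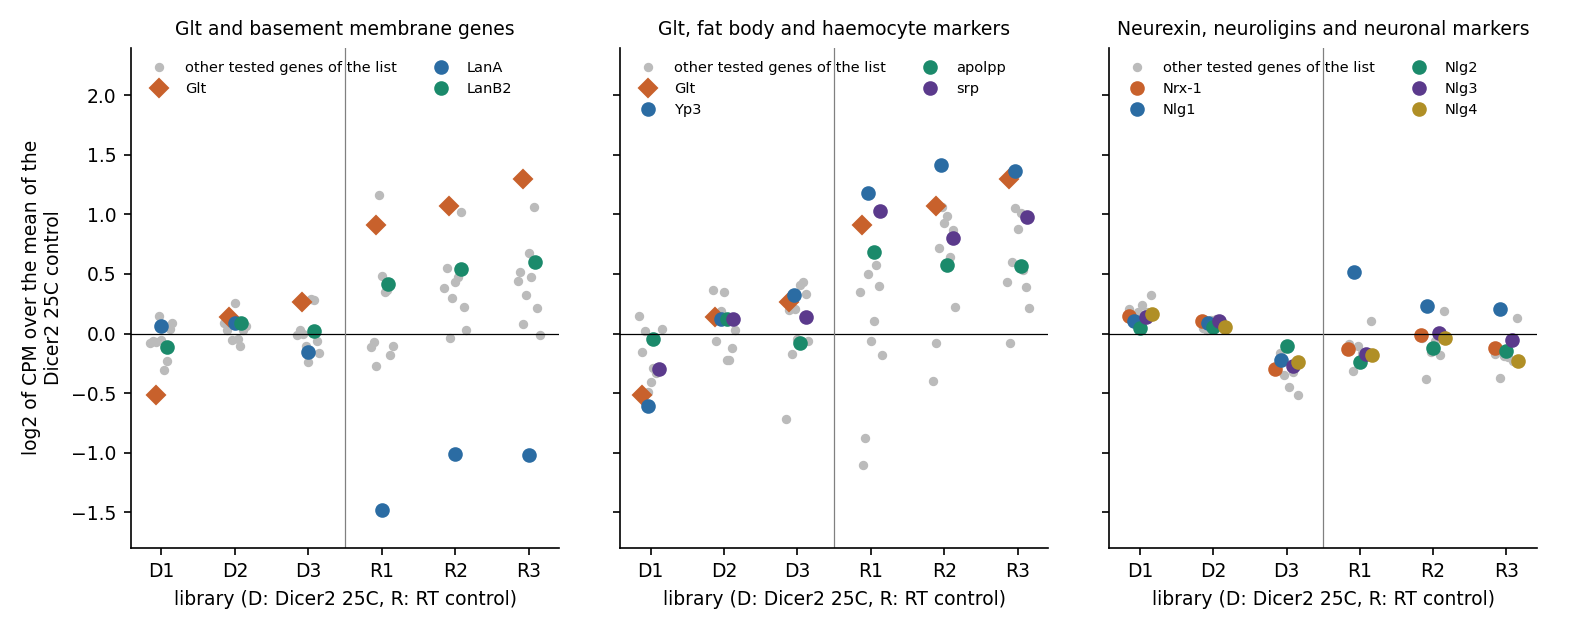
Level of each gene in each library as log2 of its CPM over the mean of the 3 Dicer2 25C libraries (vertical axis), for libraries D1 to D3 (Dicer2 25C control, replicates 1 to 3) and R1 to R3 (RT control), with *Glt* beside basement membrane genes (left), *Glt* beside fat body and haemocyte markers (middle) and neurexin and neuroligins beside neuronal markers (right). Grey points are the other tested genes of each list, and *Glt* and *Yp3* lie above 0 in R1 to R3 and are lowest in D1, while *LanA* lies below 0 in R1 to R3.

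The genes whose profile over the 6 libraries was most like that of *Glt* were ranked by the root mean square distance between centred log2 CPM. Only *Glt* among the 8 genes spanned more than 1 log2 unit (1.82), and so it alone was ranked. The nearest of the other tested genes was *CG30046* at a distance of 0.107 log2 units, with 16.3, 21.9 and 24.5 CPM in the Dicer2 25C libraries and 41.6, 48.0 and 47.4 CPM in the RT control. *Npc2g*, of the Niemann-Pick type C2 family of sterol-binding proteins, followed at 0.112, with 31.5 to 55.1 CPM against 90.3 to 97.2 CPM, and then *CG14615* at 0.120, with 3.87 to 6.78 CPM against 11.6 to 11.97 CPM. All 3 were lowest in the first Dicer2 25C library, as *Glt* was, a likeness that went into their choice.

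*Gli* (FBgn0001987, 2L, 15756002 to 15762758, minus strand) encodes the Gliotactin of tricellular junctions and of the glial sheath of peripheral nerves. It stood at 37.1, 34.2 and 35.2 CPM in the Dicer2 25C libraries and at 36.8, 38.4 and 37.9 CPM in the RT control. The groups overlapped, and the log2 fold change was 0.09 (SE 0.06, 95% interval -0.06 to 0.24, edgeR adjusted p = 0.392). The interval corresponds to at most 1.18 times the level in the RT control. *Gli* varied little, with a span of 0.17 log2 units over the 6 libraries, less than that of all but 5.51% of tested genes.

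Of 21 genes of tricellular and septate junctions tested beside *Gli*, none was called higher and 1 lower, beside 5.28% and 4.83% of all tested genes. Their median log2 fold change was -0.01. The gene called was *kune*, a claudin of septate junctions, at 33.1, 34.8 and 36.6 CPM in the Dicer2 25C libraries and 29.7, 25.1 and 25.1 CPM in the RT control (log2 fold change -0.39, SE 0.09, edgeR adjusted p = 0.0452). The call of *kune* held without RT replicate 1 (adjusted p = 0.0174) and was lost without any other single library (0.0618 to 0.146) and without the expression filter (0.064). The 2 other tricellular junction genes, *bark* and *M6*, had log2 fold changes of 0.04 (adjusted p = 0.844) and 0.03 (adjusted p = 0.896), whose sign turned with upper quartile scaling. Of 6 glial markers none was called, 2 had an unadjusted p under 0.05 and 1 was called by DESeq2, with a median log2 fold change of 0.17 and the lowest adjusted p, 0.0676, for *Gs2*, a glutamine synthetase. All 6 had log2 fold changes above 0, and their summed level was 1528 to 1917 CPM in the Dicer2 25C libraries and 2023 to 2303 CPM in the RT control, without overlap. Most of that sum came from *Gs2*, with means of 1050.3 CPM in the Dicer2 25C libraries and 1514.5 CPM in the RT control. The log2 fold changes were 0.01 for *repo* (adjusted p = 0.977), 0.06 for *wrapper*, 0.13 for *Eaat1*, 0.21 for *moody*, 0.50 for *alrm* and 0.53 for *Gs2*. Without Dicer2 25C replicate 3, 1 glial marker was called higher. The part of glial RNA in the difference of *axo* was not tested.

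*Nrt* (FBgn0004108, 3L, 16766072 to 16777465, plus strand) encodes Neurotactin. Its levels were 58.7, 55.7 and 55.8 CPM in the Dicer2 25C libraries and 54.4, 55.2 and 55.3 CPM in the RT control. The groups did not overlap, but the nearest libraries were 55.7 and 55.3 CPM. The log2 fold change was -0.05 (SE 0.06, 95% interval -0.18 to 0.09, edgeR adjusted p = 0.623). *Nrt* had the smallest span of the 8 genes on TMM-adjusted CPM, 0.11 log2 units, smaller than in all but 1.22% of tested genes. This near constancy depended on the scaling. Scaled to the library total alone, *Nrt* stood at 60.1, 56.5 and 59.5 CPM in the Dicer2 25C libraries and 51.1, 54.8 and 53.5 CPM in the RT control. It shares 935 exon bases with *mus302* on the opposite strand, and as the strand setting of the counting was not given in the sources used here, the count of *Nrt* is uncertain there.

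The secreted ligand of Neurotactin, Amalgam, is encoded by *Ama*. It was scarce, at 0.89, 1.02 and 1.15 CPM in the Dicer2 25C libraries and 4.42, 0.57 and 0.67 CPM in the RT control. The first RT control library was highest and the other 2 were the lowest of the 6. The log2 fold change was 0.86 (SE 0.82, edgeR adjusted p = 0.51), and it was -0.73 without RT replicate 1.

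**Figure D4:**
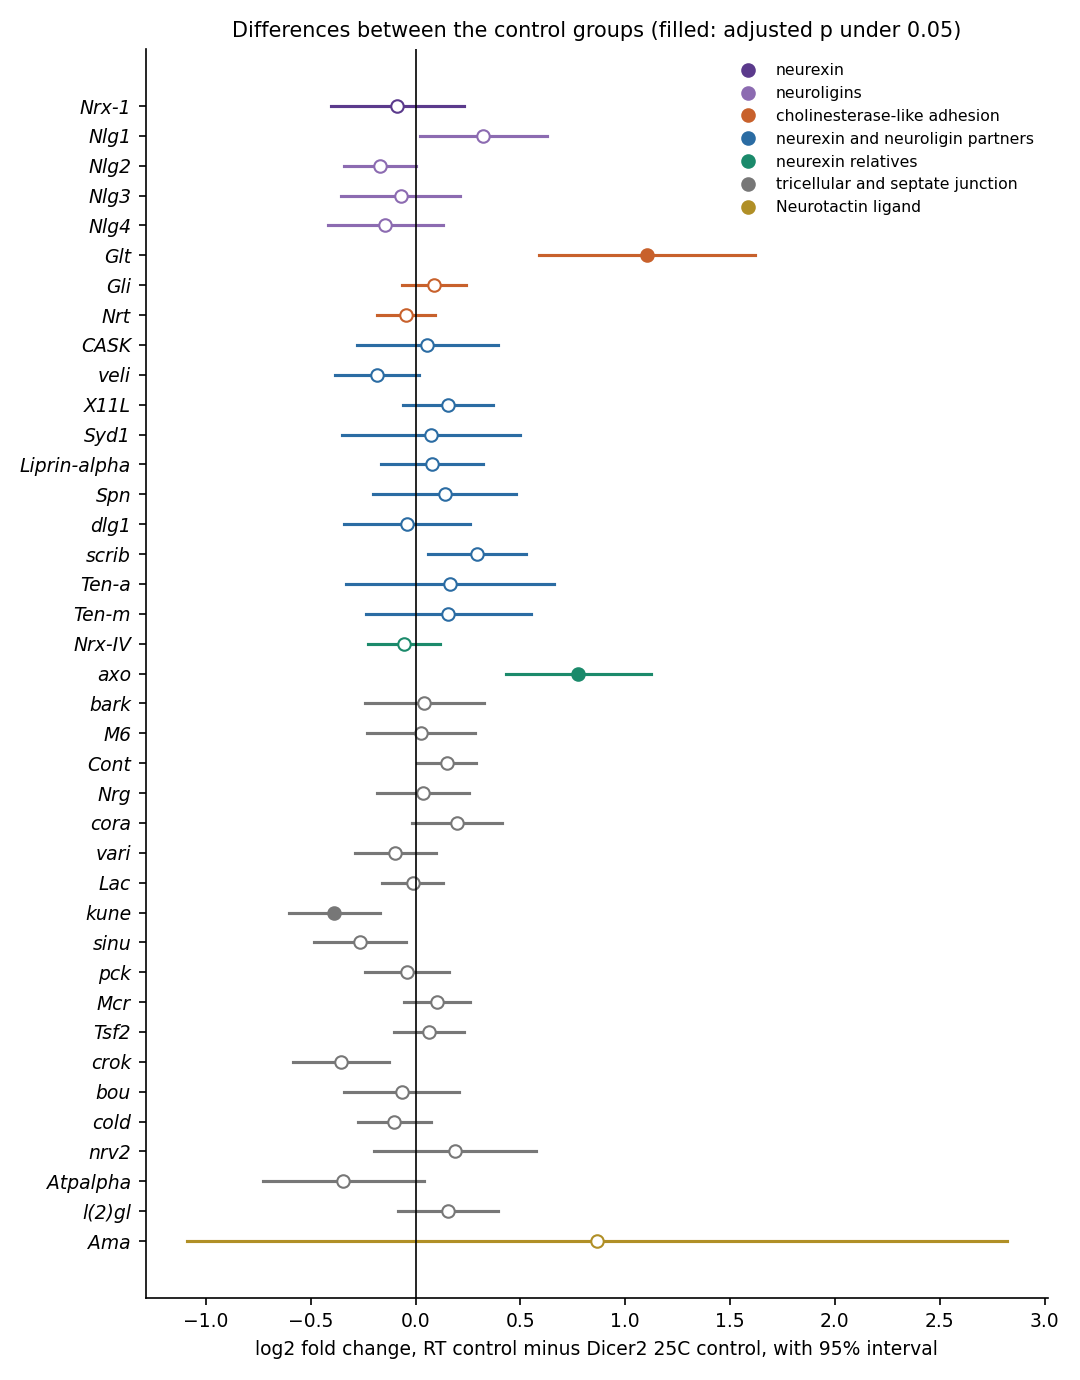
Log2 fold change of the RT control over the Dicer2 25C control (horizontal axis) with 95% intervals from edgeR's fit, for the 8 genes and for their partners, relatives, junction genes and ligand, with colours for the gene groups and filled points for an adjusted p under 0.05. The interval of *Glt* runs from 0.59 to 1.62, those of *Nrx-1*, *Nlg2*, *Nlg3*, *Nlg4*, *Gli* and *Nrt* include 0, and that of *Nlg1* runs from 0.02 to 0.63.

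Over the 8 genes, CPM did not overlap between the groups for 4, with *Nlg1* and *Glt* higher and *Nlg2* and *Nrt* lower in the RT control. Among all tested genes 37.5% did not overlap, 19.5% with the RT control higher and 18.0% with it lower. The spans over the 6 libraries ran from *Nrt* and *Gli* through *Nlg2* (0.29 log2 units), *Nlg4* (0.40), *Nlg3* (0.41), *Nrx-1* (0.45) and *Nlg1* (0.73) to *Glt* (1.82), which was larger than in 96.2% of tested genes.

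The cholinesterase-like domain is shared with enzymes, and 15 esterase genes were tested for comparison. *Ace*, the acetylcholinesterase that ends cholinergic transmission, stood at 348, 316 and 244 CPM in the Dicer2 25C libraries and 353, 335 and 320 CPM in the RT control. Its groups overlapped, and the log2 fold change was 0.15 (SE 0.14, edgeR adjusted p = 0.491). Of the 15 genes, 4 were called higher in the RT control and none lower, beside 5.28% and 4.83% of all tested genes. All 4 were alpha-esterases, a cluster of carboxylesterase genes on 3R, and the median log2 fold change of the list was 0.27. *Est-Q*, not an alpha-esterase, had the highest log2 fold change of the list, 1.83 (SE 0.46), without overlap, and was not called (edgeR adjusted p = 0.0518).

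*alpha-Est5* had a log2 fold change of 1.15 (SE 0.12, edgeR adjusted p = 0.00755) and *alpha-Est1* one of 1.03 (SE 0.11, edgeR adjusted p = 0.00766). *alpha-Est2* followed with 0.89 (SE 0.19, edgeR adjusted p = 0.0373) and *alpha-Est7*, whose blowfly counterpart breaks down organophosphates, with 0.83 (SE 0.15, edgeR adjusted p = 0.0257). The calls of *alpha-Est5* and *alpha-Est1* were lost without Dicer2 25C replicate 2 (adjusted p = 0.055 for each). Those of *alpha-Est2* and *alpha-Est7* were lost without Dicer2 25C replicate 1 (0.12 and 0.0764), Dicer2 25C replicate 2 (0.124 and 0.111), RT replicate 2 (0.0568 and 0.0581) or RT replicate 3 (0.0897 and 0.0802). Counts of *alpha-Est2* are uncertain because the antisense gene *asRNA:CR46129* overlaps it and the strand setting was not given.

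The alpha-esterase cluster lies beside *Nlg3* and *Nlg1*, a stretch that was examined after its values had been seen. The stretch from *alpha-Est10* to *Nlg1* covers 208292 bases, and 13 of its genes were tested. Of its 9 tested alpha-esterases 4 were called higher, beside 5.28% of all tested genes. Neither *Ubc84D* (log2 fold change -0.13, adjusted p = 0.748) nor *alphaTub84D* (-0.28, adjusted p = 0.0792) was called. *Nlg3* lies 21156 bases from *alpha-Est1*, the nearest esterase, and 18812 bases from *Nlg1*. The 95% interval of *alpha-Est1*, 0.77 to 1.30, did not overlap those of *Nlg3*, -0.36 to 0.21, and *Nlg1*, 0.02 to 0.63. That of *alpha-Est5*, 0.87 to 1.44, overlapped neither. Those of *alpha-Est2*, 0.43 to 1.35, and *alpha-Est7*, 0.47 to 1.19, overlapped that of *Nlg1*. The intervals of the tested alpha-esterases that were not called overlapped those of both neuroligins. The difference between these genes was not itself tested.

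**Figure D5:**
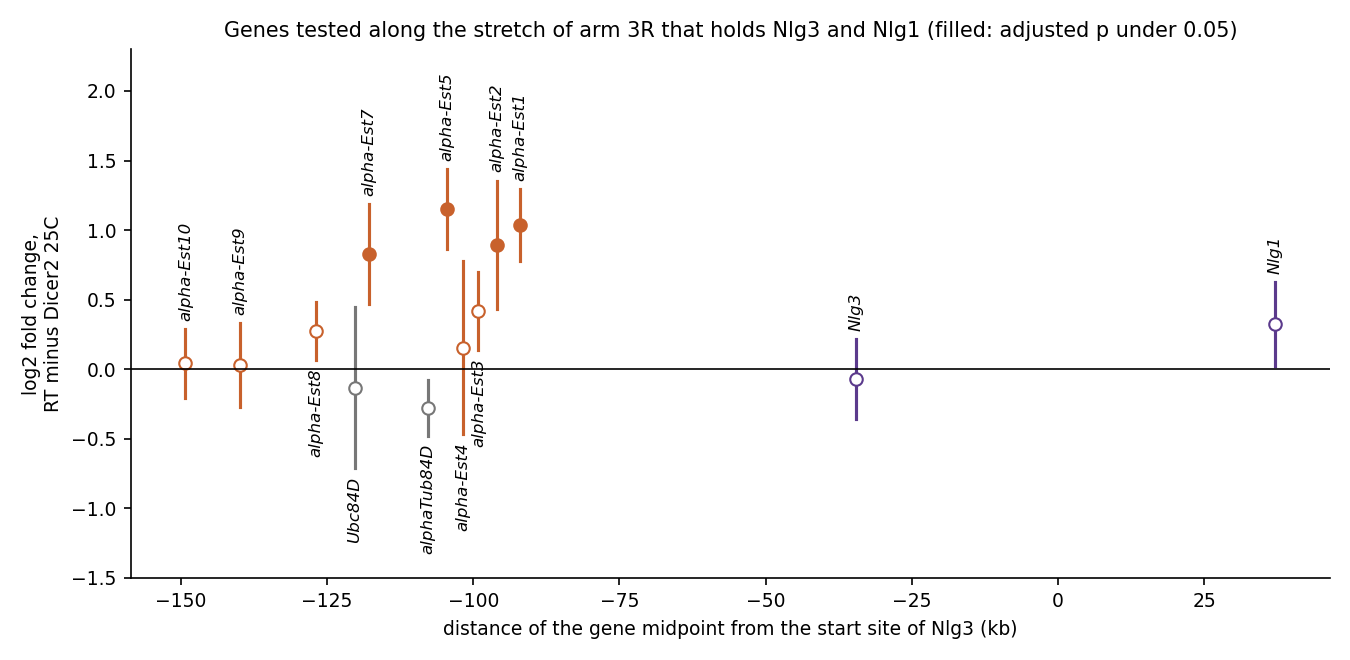
Log2 fold change of the RT control over the Dicer2 25C control (vertical axis) with 95% intervals for the 13 tested genes from *alpha-Est10* to *Nlg1* on arm 3R, placed by the distance of their midpoints from the start site of *Nlg3* (horizontal axis, kb). Points are orange for alpha-esterases, purple for neuroligins and grey for other genes, and the 4 filled points are the alpha-esterases with an adjusted p under 0.05, while *Nlg3* and *Nlg1* are open.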

How the data were processed

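Heads of 6 control libraries, 3 in each group, were sequenced from a stranded polyadenylated RNA kit. Each file the authors deposited holds unnormalized counts for the genes of 1 library. According to the methods and the submitters' processing notes, reads were trimmed with Trimmomatic (0.36), aligned with TopHat2 (2.1.0) and counted with HTSeq (0.6.1), with the strand setting not given in the sources used here. Counts without a gene were 3.16% to 4.76% of unique alignments, and ambiguous ones 2.36% to 3.62%; both were left out. Of 17559 gene identifiers 17253 matched the BDGP6.54 annotation, used for names, exon lengths and coordinates.

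From the counts, TMM-adjusted CPM, RPKM over union exon length, and edgeR (4.0.16, R 4.3.3) quasi-likelihood tests with the default expression filter, group as the only term and Benjamini-Hochberg adjustment were computed. Standard errors are the log2 fold change divided by the root of the F statistic. Intervals and the floor of 3 counts cover, respectively, the spread of these libraries and counting error only. In simulated data with 200 genes changed by a log2 fold change of 1, 76.0% were recovered with 8 false calls among 10187 genes. Each simulated gene was drawn independently with its fitted dispersion, without shifts shared by the genes of a library. The simulation therefore does not give the error rate of the calls in these libraries. DESeq2 (1.42.0), other scalings, filters, a replicate block and each library left out in turn were alternatives.

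The rule for the members uses no measured value, but it and the lists were set with earlier results of these data known. Named genes were the 8 members, *Dcr-2*, *elav*, *Ace*, *Nrx-IV*, *axo*, *Ama*, *bark* and *M6*, up to 4 genes called per list or the 1 with the lowest p where none was called, and the 3 nearest profiles of a member spanning over 1 log2 unit (0.5 added to CPM). *veli*, *He*, *Hml*, *NimC1*, *eater*, *Pxn*, *Lsp2*, *fit*, *to*, *Yp1*, *Yp2*, *repo*, *wrapper*, *Eaat1*, *moody*, *alrm*, *LanB1*, *wb*, *Ppn*, *Ndg*, *Est-Q*, *mus302*, *Ubc84D*, *alphaTub84D* and *alpha-Est10* were named after their values were seen. Of 104 list genes 102 were matched; *trol* and *wupA* were not analysed here.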

Additional observations from a re-analysis of the deposited data

How the results depend on the processing

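No member changed sign under any scaling, filter, test, block or left-out library. *Glt* was called under RLE (adjusted p = 0.03) and upper quartile scaling (0.0339), without the filter (0.0195), with at least 10 counts in every library (0.0316) and by DESeq2 (8.86e-06), and the other 7 members under none. With 1 library left out, 0 to 1 members were called. Against 1030 genes called, DESeq2 called 1889 and single left-out libraries gave 44 to 1944. With an absolute log2 fold change above 1 as well, 287 became 437 with DESeq2 and 33 to 438 with a library left out. The replicate numbers did not pair the samples (correlations of same-numbered deviations -0.113, -0.013 and -0.001), and with the replicate block 172 genes were called, or 91 with the fold threshold, while *Glt* had an adjusted p of 0.0444. Under the block the calls of *axo* (adjusted p = 0.0564), *kune* (0.112), *LanB2* (0.0509), *alpha-Est2* (0.0993), *alpha-Est7* (0.0821), *apolpp* (0.112), *Yp3* (0.1) and *srp* (0.0555) were lost. Upper quartile scaling shifted the median of all genes to -0.06 and turned *bark* to -0.011 and *M6* to -0.028. With a library left out, log2 fold changes ran from -0.069 to 0.10 for *bark*, -0.067 to 0.10 for *M6*, -0.73 to 1.31 for *Ama* and -0.22 to 0.016 for *elav*. Over the longest transcript in place of all exons, a choice made after seeing the data, the RT control level became 51.97 RPKM for *Nrx-1*, 23.98 for *Nlg2* and 13.2 for *Nrt*. Scaled to the library total alone, mean levels moved by more than their SD for *Nrt* in the Dicer2 25C control (58.68 CPM) and the RT control (53.15 CPM). The same held for *Gli* in the RT control (36.49 CPM). Levels under 0.0706 to 0.161 CPM could not be resolved at this depth.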

Other observations

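Photoreceptor and muscle markers were also measured in the same heads. Of 5 photoreceptor markers none was called by edgeR's quasi-likelihood test or had an unadjusted p under 0.05, and DESeq2 called 1. Their median log2 fold change was -0.18, the lowest adjusted p was 0.238, for *ninaE*, the main rhodopsin, and their summed level was 54007 to 65640 CPM in the Dicer2 25C control and 43358 to 45047 CPM in the RT control. Of 5 muscle markers none was called by either tool, 1 had an unadjusted p under 0.05, the median was -0.46 and the lowest adjusted p was 0.151, for *up*, a troponin T. Without Dicer2 25C replicate 3, 3 of the 5 muscle markers were called lower in the RT control. The muscle marker sum was 4631 to 8830 CPM in the Dicer2 25C control, lowest in replicate 3. It was 4948 to 5939 CPM in the RT control, so the groups overlapped.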
